A study of Mus musculus with 15 samples.

Results

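The CD209 (DC-SIGN) lectin paralogs of the mouse are 7 genes, *Cd209a* to *Cd209g*, and all 7 were rows among the 53465 genes of the count matrix. They were taken by gene symbol. The family was chosen after the level of *Cd209e* in the IL-4/IL-6 group had been seen against control and against IL-4, so every value that involves IL-4 with or without IL-6 is given as a description, without a test. Tests are given for the IL-13 groups, whose own libraries that choice did not use. The control libraries took part in it, so *Cd209e* is tested only between IL-13/IL-6 and IL-13, and the tests of the other members against control share those libraries with the choice.

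RNA was sequenced from mouse BMDMs, macrophages that differentiate from bone marrow in culture, here over 7 days in medium with 10% FBS and 20 ng/ml M-CSF, the growth factor that drives macrophage differentiation. The 5 groups of 3 libraries were a control without added cytokine, IL-4, IL-4/IL-6, IL-13, and IL-13/IL-6, each for 24 h, with IL-4 at 10 ng/ml and both IL-6 and IL-13 at 40 ng/ml. The bone marrow of all groups came from mice of 1 genotype, 8 to 12 weeks old. No group received IL-6 alone, so the levels below describe IL-6 co-addition with IL-4 or with IL-13 and not IL-6 by itself.

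CD209 proteins are C-type lectins, membrane receptors that use calcium to bind sugars such as mannose and fucose on microbes and on host glycoproteins. Human DC-SIGN is known from dendritic cells and macrophages, where it takes up ligands and modulates signaling, and IL-4 is a classical inducer of it in human monocytes. In the mouse the family has been expanded by gene duplication. *Cd209a* is the gene usually named mouse DC-SIGN (also CIRE), *Cd209b* encodes SIGNR1, known from marginal zone macrophages of the spleen, and *Cd209c*, *Cd209d* and *Cd209e* encode SIGNR2, SIGNR3 and SIGNR4. *Cd209f* and *Cd209g* are also listed as SIGNR8 and SIGNR7.

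The 7 genes lie side by side on chromosome 8 (GRCm38, annotation GENCODE M21). From the left they are *Cd209a* (ENSMUSG00000031494, chr8:3743397-3748984), *Cd209e* (ENSMUSG00000040197, chr8:3847965-3854309), *Cd209d* (ENSMUSG00000031495, chr8:3871824-3878555), *Cd209b* (ENSMUSG00000065987, chr8:3917655-3926844), *Cd209c* (ENSMUSG00000040165, chr8:3940222-3954746), *Cd209f* (ENSMUSG00000051906, chr8:4102787-4105835) and *Cd209g* (ENSMUSG00000079168, chr8:4134098-4137707). *Cd209g* is on the plus strand and the other 6 are on the minus strand. The cluster spans 394.3 kb and holds 11 further annotated genes, of which 7 are pseudogenes and 0 are protein-coding. No member overlaps another annotated gene. The nearest protein-coding neighbors are *Clec4g*, another C-type lectin gene, 22.7 kb to the left, and *Evi5l*, which encodes a Rab GTPase-activating protein, 28.9 kb to the right.

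**Figure D1:**
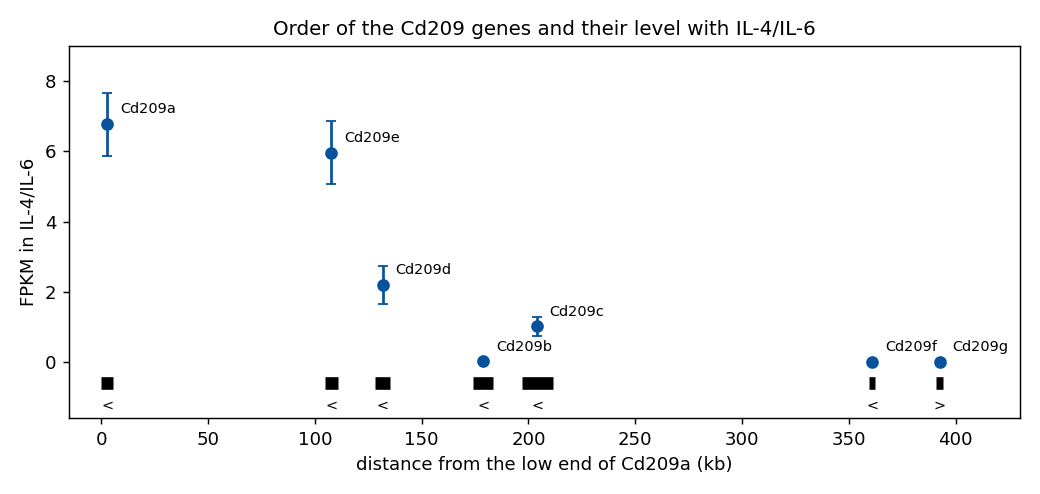
FPKM in IL-4/IL-6 (points, mean of 3 libraries; bars, SD) against distance in kb from the low end of *Cd209a*, with black boxes for the genes to scale and arrowheads for their strand. *Cd209a* and *Cd209e* are highest at 6.77 and 5.96 FPKM, *Cd209b* lies near 0 between *Cd209d* and *Cd209c*, and *Cd209f* and *Cd209g*, with a count of 0, are drawn at 0 at the right end.

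Stretches at or just upstream of the start sites of *Cd209a*, *Cd209d* and *Cd209e* are shown because these genes had the highest FPKM of the family in IL-4/IL-6 and because they share a run of bases. They are taken from the RefSeq promoter table of GRCm38.p6, which held 7 of 7 members, and the capitals mark the longest run that all 3 share. That of *Cd209a* ends 3 bases past its RefSeq start, and those of *Cd209d* and *Cd209e* end before the start, where the GENCODE transcript begins.
*Cd209a*, chr8:3748982-3749234, minus strand: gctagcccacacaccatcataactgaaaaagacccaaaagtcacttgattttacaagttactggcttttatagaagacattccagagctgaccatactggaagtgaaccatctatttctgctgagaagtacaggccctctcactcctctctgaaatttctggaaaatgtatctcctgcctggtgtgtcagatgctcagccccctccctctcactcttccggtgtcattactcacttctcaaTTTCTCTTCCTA
*Cd209d*, chr8:3878556-3878749, minus strand: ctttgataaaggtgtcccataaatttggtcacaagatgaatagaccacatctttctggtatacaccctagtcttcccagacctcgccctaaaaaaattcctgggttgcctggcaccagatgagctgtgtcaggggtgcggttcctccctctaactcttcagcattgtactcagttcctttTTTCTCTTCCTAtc
*Cd209e*, chr8:3854310-3854536, minus strand: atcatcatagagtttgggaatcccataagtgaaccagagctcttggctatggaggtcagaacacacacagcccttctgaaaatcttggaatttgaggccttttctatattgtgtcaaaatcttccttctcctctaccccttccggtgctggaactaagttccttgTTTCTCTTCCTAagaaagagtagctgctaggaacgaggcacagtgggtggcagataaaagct
The shared run, TTTCTCTTCCTA, begins 9 bases before the RefSeq start of *Cd209a*, 70 bases before that of *Cd209d* and 85 bases before that of *Cd209e*. It was searched on both strands after it had been seen in these 3 genes. The windows of *Cd209b*, *Cd209c*, *Cd209f* and *Cd209g* lack it, and 9 of 32851 RefSeq windows of 300 bases hold it (0.0274%), these 3 among them. A match of letters describes the window and is no evidence of binding.

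Apart from *Cd209f* and *Cd209g*, no member shared a 50-base word of its annotated transcripts with another member. The reads themselves were not examined. No 50-base word of the annotated transcripts of *Cd209a*, *Cd209b*, *Cd209d* or *Cd209e* occurred in the transcripts of another member or of any other gene. *Cd209c* shared 15.7% of its words with other genes, though with no other member, so its counts carry more uncertainty. *Cd209f* and *Cd209g* shared 646 words with each other, which is 29.8% and 16.6% of theirs. Their coding sequences were identical at 89.2% of aligned bases, against 61.6 to 77.4% for the other pairs, with *Cd209b* and *Cd209d* at the upper end of that range.

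Each library held between 17001352 and 18918686 counts. Replicates varied by 4.48% in control and 4.54% in IL-4 (edgeR's biological coefficient of variation), and by more in IL-13/IL-6 (7.38%), IL-13 (10.9%) and IL-4/IL-6 (14.8%). Counts scaled to the library size are given as normalized CPM (CPM is the count scaled to library size, here with TMM factors), which compares a gene between libraries. Levels of different genes are compared in FPKM (fragments scaled to gene length in kilobases and to library size, as deposited), which accounts for gene length. Where counts or CPM of different genes stand side by side, gene length is not accounted for. Over the 3 libraries of a group, a count of 0 allows up to 3 counts, taken as the floor, which was between 0.0545 and 0.0569 CPM per group. Floors and counting intervals cover counting error only. A fold against the floor takes the count of the other group as exact, so it is not a lower bound.

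The family was almost silent in IL-4 and IL-13, low in control and in IL-13/IL-6, and highest in IL-4/IL-6. The summed counts of the 7 members were between 41 and 58 per library in control (154 in the group), between 1 and 3 in IL-4 (6 in the group), and between 448 and 484 with IL-4/IL-6 (1406 in the group). In IL-13 they were 0 in every library, and in IL-13/IL-6 they were between 48 and 63 (162 in the group). No IL-4/IL-6 library overlapped any library of another group in this sum, whereas control and IL-13/IL-6 overlapped. In FPKM the family sum was 15.9 ± 0.556 (SD, n = 3) in IL-4/IL-6, 1.81 ± 0.263 in control and 1.81 ± 0.267 in IL-13/IL-6.

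**Figure D2:**
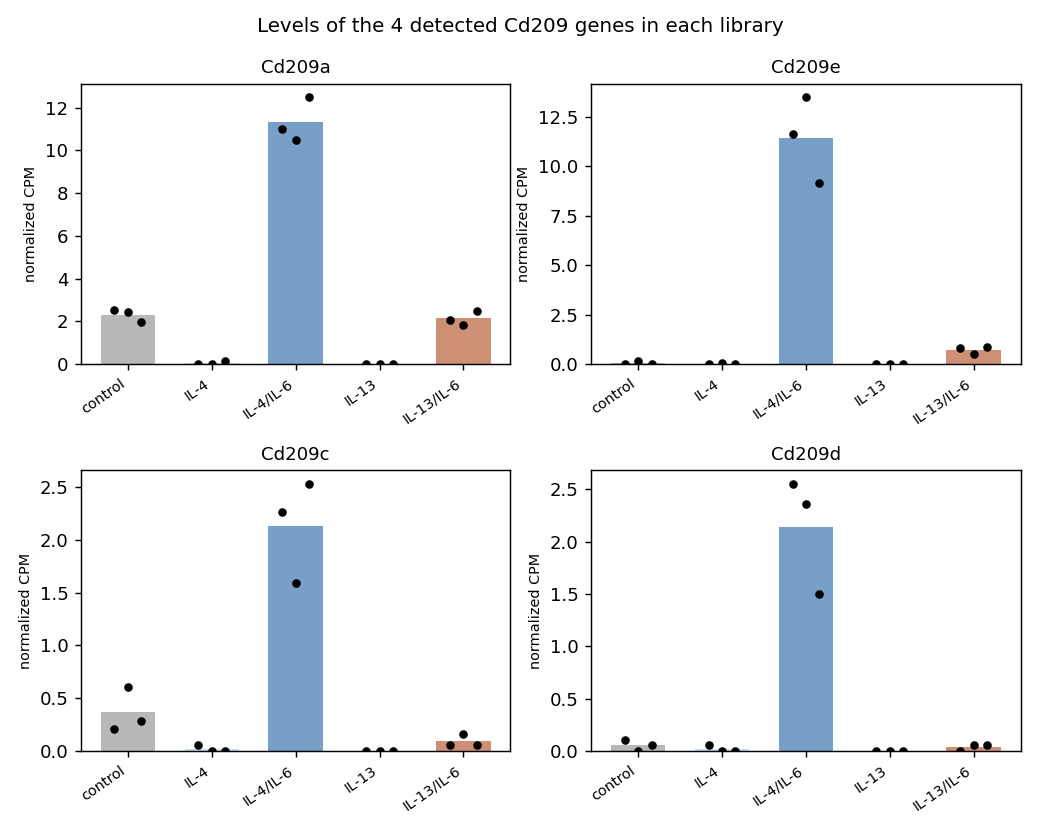
Normalized CPM of *Cd209a*, *Cd209e*, *Cd209c* and *Cd209d* by group, with points for the 3 libraries and bars for the group mean, each gene on its own linear axis. IL-4/IL-6 libraries are highest for each of the 4 genes, and *Cd209a* is at similar levels in control and IL-13/IL-6 (2.32 and 2.14 normalized CPM).

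*Cd209a* was the member with the most counts over all libraries, 835. The 3 control libraries had 49, 44 and 35 counts of it, the IL-4 libraries 0, 0 and 3. With IL-4/IL-6 the libraries had 194, 178 and 217. The IL-13 libraries had 0, 0 and 0 counts and the IL-13/IL-6 libraries 36, 34 and 45. Thus both cytokine groups without IL-6 lay below every control library, the IL-4/IL-6 libraries lay above all others, and the IL-13/IL-6 libraries overlapped the controls. The mean level was 2.32 ± 0.313 normalized CPM in control (SD, n = 3), 11.3 ± 1.04 in IL-4/IL-6 and 2.14 ± 0.334 in IL-13/IL-6.

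As a description, *Cd209a* was 42.7-fold lower in IL-4 than in control (counting interval 14.3 to 210), a ratio that rests on 3 counts in IL-4 replicate 3. IL-6 co-addition with IL-4 placed it 208-fold above IL-4 (interval 70.9 to 1010). Against control, IL-4/IL-6 differed by a log2 fold change of 2.28 (SE 0.22). Without IL-4 replicate 3 the IL-4 group is at 0, and the fitted log2 fold change of IL-4/IL-6 over IL-4 moves from 7.53 to 10.68, since a fitted value against a group near 0 depends on the prior count.

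*Cd209e* had about as many counts as *Cd209a* in IL-4/IL-6 (593 and 589 in the group) and nearly none in control. Its counts were 0, 3 and 0 in control, 0, 1 and 0 in IL-4, and 205, 229 and 159 with IL-4/IL-6. They were 0 in each IL-13 library and 14, 9 and 16 in IL-13/IL-6. Every library of both groups with IL-6 lay above every library without it. The mean was 11.4 ± 2.18 normalized CPM in IL-4/IL-6 and 0.729 ± 0.213 in IL-13/IL-6. Over control its fitted log2 fold change with IL-4/IL-6 was 7.54 (SE 0.47), and the ratio had a counting interval of 71.3 to 1020 with 3 counts in control, and the ratio to IL-4 was 628 (112 to 24900), with 1 count in IL-4. These are the values by which the family was chosen. The fitted value over control was 10.68 without control replicate 2, 6.98 without replicate 1 and 7.02 without replicate 3, and that over IL-4 moved from 8.83 to 10.69 without IL-4 replicate 2.

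*Cd209c* followed *Cd209a* in being present in control. Its counts were 4, 11 and 5 in control, 1, 0 and 0 in IL-4, and 40, 27 and 44 with IL-4/IL-6. They were 0 in each IL-13 library and 1, 3 and 1 in IL-13/IL-6. The IL-4/IL-6 libraries lay above all others, and in contrast to *Cd209a* the IL-13/IL-6 libraries all lay below the controls. The mean was 2.13 ± 0.486 normalized CPM in IL-4/IL-6 against 0.366 ± 0.214 in control, and the fitted log2 fold change was 2.53 (SE 0.42). The IL-4/IL-6 to IL-4 ratio was 118 (counting interval 20.7 to 4690), and *Cd209c* was 20-fold lower in IL-4 than in control (3.2 to 829), both with 1 count, in IL-4 replicate 1. Without that library the fitted log2 fold change of IL-4/IL-6 over IL-4 moves from 6.42 to 8.27.

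*Cd209d* was measurable in IL-4/IL-6 and at or below the floor of 3 counts in each of the other groups. It had 45, 40 and 26 counts in IL-4/IL-6, 2, 0 and 1 in control, 1, 0 and 0 in IL-4, 0 in each IL-13 library, and 0, 1 and 1 in IL-13/IL-6. The mean in IL-4/IL-6 was 2.14 ± 0.561 normalized CPM. The ratio was 39.2 to control (counting interval 13.1 to 193), where the fitted log2 fold change moves from 5.13 to 5.94 without control replicate 1, and 118 to IL-4 (20.7 to 4690), the latter with 1 count in IL-4 replicate 1, without which the fitted log2 fold change moves from 6.42 to 8.27.

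The remaining 3 members were not detectable at this depth or barely so. *Cd209b* had 2 counts in IL-4/IL-6 replicate 3, 1 in IL-13/IL-6 replicate 2 and 0 elsewhere. *Cd209f* and *Cd209g* had 0 counts in each of the 15 libraries, which allows up to 0.011 CPM over all libraries. Of the neighbors of the cluster, *Clec4g* had at most 2 counts in any library, too few to show a pattern. *Evi5l* had between 183 and 317 counts per library, so it did not fall to the floor in any group.

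Compared per length in IL-4/IL-6, *Cd209a* (6.77 ± 0.894 FPKM) and *Cd209e* (5.96 ± 0.895 FPKM) were highest, followed by *Cd209d* (2.18 ± 0.543 FPKM) and *Cd209c* (1.01 ± 0.271 FPKM), with *Cd209b* at 0.0178 FPKM. The *Cd209a* to *Cd209e* ratio of these means was 1.14, and over the 3 libraries the ratio had an SD of 0.344, so the order of these 2 neighbors does not exceed their spread. In normalized CPM the same ratio was 0.992. *Cd209d* and *Cd209c* had the same level in CPM and separated in FPKM, without overlap of their libraries (1.59 to 2.66 FPKM and 0.715 to 1.24 FPKM), because the *Cd209d* length behind the FPKM is 919 bases and that of *Cd209c* is 1997 bases.

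The make-up of the family differed between the groups in which it was detected. *Cd209a* made up 79.5 to 88.1% of the family FPKM per library in control, 37.9 to 49.6% in IL-4/IL-6 and 72.7 to 73.3% in IL-13/IL-6. For *Cd209e* these shares were 0 to 4.76%, 31.9 to 42.9% and 16.9 to 25.1%. *Cd209d* contributed 10.2 to 16.04% in IL-4/IL-6. *Cd209c* contributed 5.70 to 15.8% in control and 4.56 to 7.97% in IL-4/IL-6. The *Cd209e* share therefore did not overlap between control, IL-13/IL-6 and IL-4/IL-6. IL-4 was added at 10 ng/ml and IL-13 at 40 ng/ml, so the levels of IL-4/IL-6 and IL-13/IL-6 stand side by side and their difference was not tested.

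**Figure D3:**
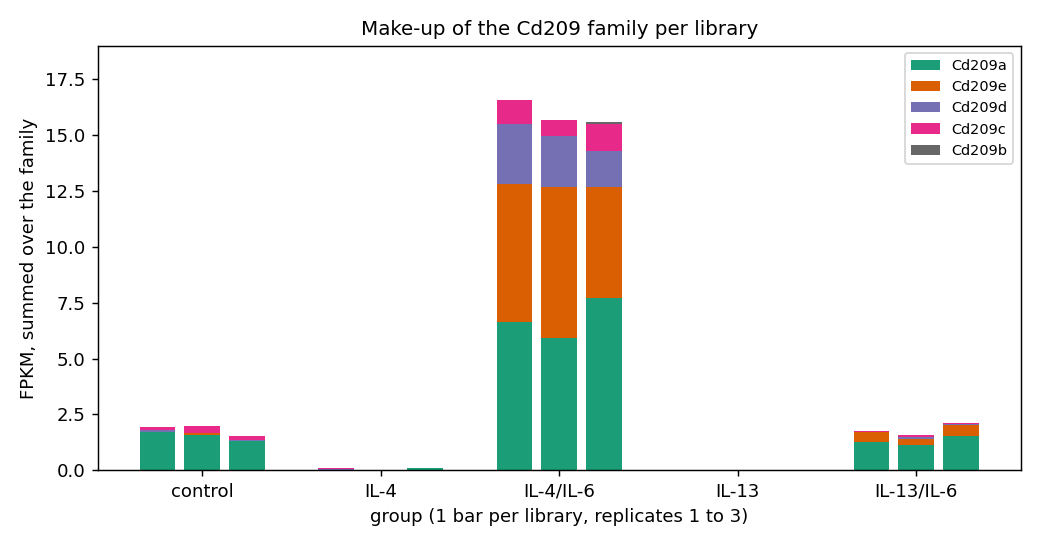
Stacked FPKM of the *Cd209* members in each of the 15 libraries, grouped by treatment. IL-4/IL-6 bars reach 15.6 to 16.6 FPKM with *Cd209a* and *Cd209e* as the main parts, while control and IL-13/IL-6 bars stay between 1.51 and 2.103 FPKM and consist mostly of *Cd209a*.

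In the IL-13 groups the members were tested with edgeR's quasi-likelihood test on all 15 libraries, with Benjamini-Hochberg adjustment over 13938 genes. *Cd209a*, *Cd209c*, *Cd209d* and *Cd209e* passed the filter on low counts. *Cd209c*, *Cd209d* and *Cd209e* passed it through their counts in IL-4/IL-6, so counts over the 4 members are a description. Each call is therefore given also in a fit of the 9 libraries of the IL-13 arm without a filter (24231 genes), chosen after seeing the data, in which no IL-4 library takes part. *Cd209b*, *Cd209f* and *Cd209g* did not pass and have no test.

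IL-13 alone was compared with control. *Cd209a* fell from 35 to 49 counts per library to 0 in all 3, which is 43.3-fold lower against the floor. Its adjusted p was 9.56e-08, and 1.31e-26 in the unfiltered fit of the IL-13 arm (edgeR). With the filter that arm gave 2.34e-07, and all 15 libraries without a filter gave 3.23e-30 (edgeR). The smaller values thus go with leaving out the filter and not with leaving out the IL-4 libraries. *Cd209c* fell from 4 to 11 counts to 0, which is 6.76-fold lower against the floor. Its adjusted p was 0.00062, and 0.00101 in the unfiltered fit of the IL-13 arm (edgeR). *Cd209d* and *Cd209e* had at most 3 counts in either group, so no fold or test is given for them. In this contrast *Cd209a* and *Cd209c* were the 2 members called, both lower, while 31.1% of all genes tested were lower, 29.0% were higher and 60.1% were called in either direction.

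The effect of IL-6 co-addition with IL-13 was next compared with IL-13 alone. *Cd209a* rose from 0 to between 34 and 45 counts per library, 39.9-fold higher against the floor. Its adjusted p was 4.28e-07, and 3.61e-25 in the unfiltered fit of the IL-13 arm (edgeR). With the filter that arm gave 9.97e-07, and all 15 libraries without a filter gave 1.17e-28 (edgeR). *Cd209e* rose from 0 to between 9 and 16 counts, 13.5-fold higher against the floor. Its adjusted p was 0.000228, and 2.32e-06 in the unfiltered fit of the IL-13 arm (edgeR). For *Cd209c*, with 0 counts in IL-13 and 5 in IL-13/IL-6, the fold against the floor was 1.73 and the test was not passed. Its adjusted p was 0.0756, and 0.151 in the unfiltered fit of the IL-13 arm (edgeR). *Cd209d*, with 2 counts in IL-13/IL-6, was at the floor in both groups, too low for a test to be informative. Of the 4 tested members 2 were higher, while 12.1% of all genes were higher, 13.5% were lower and 25.6% were called in either direction. With the filter applied to the 9 libraries of the IL-13 arm, *Cd209a* is the only member left to test.

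IL-13/IL-6 was also set against control. *Cd209a* differed by a log2 fold change of -0.12 (SE 0.26, adjusted p = 0.709, edgeR), and the ratio of control to IL-13/IL-6 was 1.09 (counting interval 0.837 to 1.41). For *Cd209e* the log2 fold change was 3.58 (SE 0.72), given without a p because its control level was among the values that chose the family, a ratio of 13.3 (counting interval 4.24 to 67.4) that rests on 3 counts in control replicate 2. Without that library control is at 0, and the fitted log2 fold change is 6.73. The *Cd209c* level was 3.9-fold below control (counting interval 1.42 to 13.3, log2 fold change -1.89, SE 0.70, adjusted p = 0.0269, edgeR). That call was lost in the unfiltered fit of the IL-13 arm (adjusted p = 0.142, edgeR) and without control replicate 2 (adjusted p = 0.151, edgeR). It was also lost without IL-13/IL-6 replicate 1 (adjusted p = 0.0906, edgeR) and without IL-13/IL-6 replicate 3 (adjusted p = 0.0933, edgeR). *Cd209d* was at the floor in both groups. *Cd209c* was thus the 1 member called lower with all libraries, while 31.9% of all genes were higher and 32.1% were lower, 64.0% in all.

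The 3 control libraries held markers of other blood cells, and their summed levels were lower in IL-4 and in IL-13 alone, as *Cd209a* and *Cd209c* were, while in IL-4/IL-6 the markers were low and both genes were above control. In IL-13/IL-6 the markers were low, *Cd209a* was near its control level and *Cd209c* was below it (0.0921 against 0.366 normalized CPM). The summed level of 6 genes of classical dendritic cells (*Flt3*, *Zbtb46*, *Ccr7*, *Dpp4*, *Xcr1* and *Clec9a*) was 23.8 to 26.1 normalized CPM in control, 0.412 to 1.04 in IL-4/IL-6, 0.609 to 0.856 in IL-4 alone, 0.450 to 1.34 in IL-13 and 0.445 to 0.705 in IL-13/IL-6. *Flt3*, a growth factor receptor of dendritic cells, was at 6.38 normalized CPM in control and had a count of 0 in all 6 libraries that received IL-4. Of the 5 tested genes the exception in the IL-4 arm was *Zbtb46*, a transcription factor of classical dendritic cells, at 0.739 normalized CPM in control and 0.614 in IL-4/IL-6. In IL-13 over control, where 31.1% of all genes were called lower, 5 of 5 tested dendritic cell genes were lower (median log2 fold change -4.91, edgeR), as were 5 of 5 B cell genes and 3 of 3 genes of granulocytes and their precursors. The median over all genes was -0.02. The summed B cell genes were 10.8 to 12.3 normalized CPM in control and at most 1.66 in any library of another group, and those of granulocytes and precursors 102 to 126 in control and at most 1.84 elsewhere. Their part in the *Cd209a* and *Cd209c* counts of the control was not tested, and fewer cells of a type and less RNA per cell cannot be told apart in these data.

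In both groups with IL-6, where *Cd209a* and *Cd209e* were detected, these marker sums were as low as in IL-4 and IL-13 alone. Of the 6 dendritic cell genes, 5 in IL-4/IL-6 and 4 in IL-13/IL-6 had at most 3 counts in every library, and the gene above that limit in IL-4/IL-6 was *Zbtb46*. Macrophage genes (*Adgre1*, *Csf1r*, *Cd68*, *Mertk* and *Fcgr1*) summed to between 4413 and 5393 normalized CPM in every library, most of it *Csf1r*, *Cd68* and *Adgre1*. Within this list *Mertk*, a receptor for the uptake of dying cells, was at 143 normalized CPM in control and between 8.27 and 17.9 in the cytokine groups, and *Fcgr1*, an Fc receptor, was at 155 in control and 479 in IL-13/IL-6. *Marco* and *Siglec1*, which mark the marginal zone and sinus macrophages in which *Cd209b* is known, summed to 192 to 214 normalized CPM in control, 122 to 166 in IL-13/IL-6 and 32.2 to 64.4 in IL-4/IL-6. With 1 cytokine alone the sum was 72.6 to 100.5 in IL-4 and 114.8 to 174.4 in IL-13. Nearly all of that sum was *Siglec1*, with *Marco* at 6.08 in control and at most 0.805 in the other groups, and *Cd209b* itself stayed at the floor. T cell genes were at most 0.224 normalized CPM, and genes of liver sinusoidal endothelium at most 10.6, both in control. The latter sum was mostly *Stab2* (8.32 in control), while *Lyve1* was highest in IL-13/IL-6, at 0.354.

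**Figure D4:**
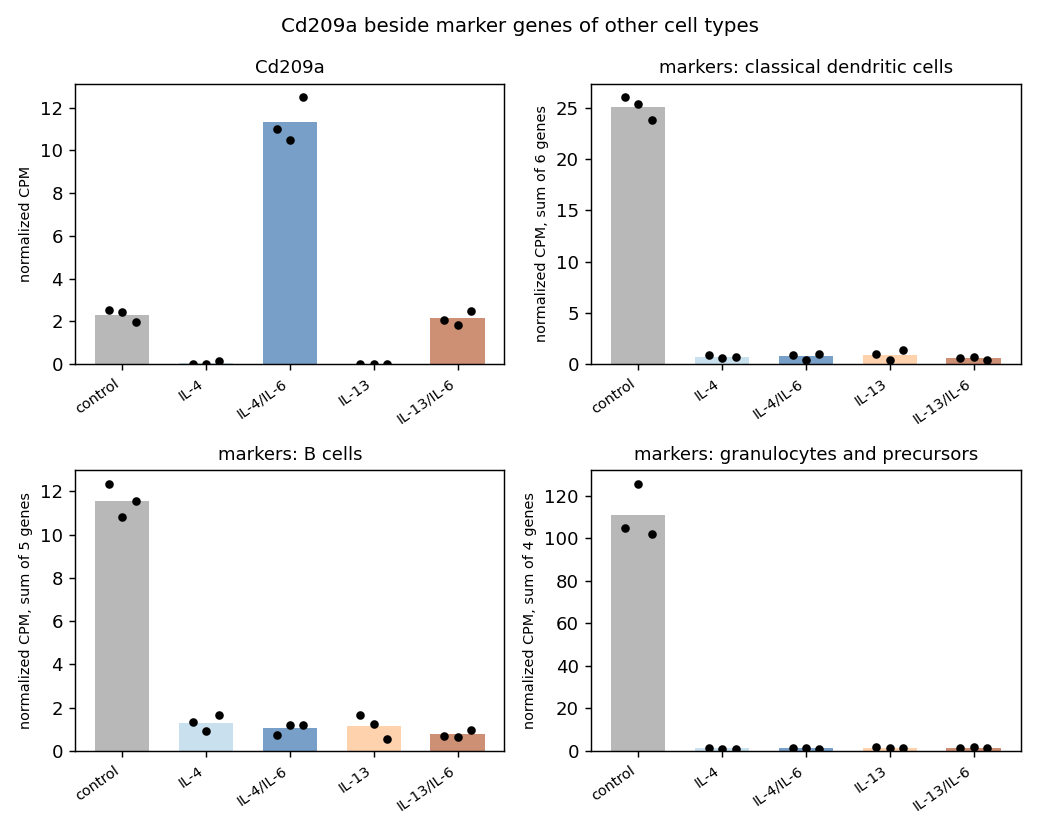
Normalized CPM of *Cd209a* and the summed normalized CPM of marker genes of classical dendritic cells, B cells and granulocytes with their precursors, by group, on linear axes that start at 0, with points for libraries and bars for group means. Each marker sum is high in control and low in the other 4 groups, whereas *Cd209a* is highest in IL-4/IL-6 (11.3) and reaches 2.14 in IL-13/IL-6.

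Genes that work with CD209 were counted from lists, to be read against the shares of all genes called above (25.6% in IL-13/IL-6 over IL-13 and 60.1% in IL-13 over control). The signaling partners of human DC-SIGN include LSP1 and KSR1, and of 7 genes 6 were tested. In IL-13/IL-6 over IL-13, 2 were higher, 1 was lower and 3 were not called, with a median log2 fold change of 0.05 (0.01 over all genes). *Lsp1*, a leukocyte actin-binding protein that binds the tail of human DC-SIGN, fell by 2.02 on the log2 scale (SE 0.08, adjusted p = 9.69e-12, edgeR), from 192 to 47.3 normalized CPM, and was at 14.3 in IL-4/IL-6 compared with 128 for IL-4 alone. *Arhgef12*, a guanine nucleotide exchange factor, rose by 0.61 (adjusted p = 0.0093, edgeR), and *Nras*, a small GTPase, by 0.24 (adjusted p = 0.0135, edgeR). In IL-13 over control, 3 of the partners were higher, 2 were lower and 1 was not called.

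The host counterreceptors of DC-SIGN were the second list, *Icam2*, *Ceacam1*, *Itgam* and *Itgb2*. In IL-13/IL-6 over IL-13, 1 was higher, 2 were lower and 1 was not called (median log2 fold change -0.59). *Itgb2*, the beta chain of the leukocyte integrins, fell by 1.05 (adjusted p = 1.61e-10, edgeR), from 1494 to 724 normalized CPM. *Icam2*, an adhesion ligand of human DC-SIGN, fell by 1.12 (adjusted p = 0.000396, edgeR). *Itgam*, which pairs with *Itgb2* in Mac-1, rose by 0.35 (adjusted p = 0.000441, edgeR). In IL-13 over control, 1 was higher, 2 were lower and 1 was not called.

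Of 5 transcription factors that act downstream of these cytokines or in myeloid cells (*Stat3*, *Stat6*, *Spi1*, *Irf4* and *Klf4*), 2 were higher, 1 was lower and 2 were not called in IL-13/IL-6 over IL-13 (median log2 fold change 0.09). *Stat3*, the factor activated by the IL-6 receptor, rose by 1.63 (adjusted p = 5.6e-11, edgeR), from 84.1 to 260 normalized CPM, and IL-4/IL-6 had 224 where IL-4 alone had 68.2. *Irf4*, an IL-4 target in macrophages, fell by 2.06 (adjusted p = 7.65e-09, edgeR), from 12.01 to 2.87. *Klf4*, an M2-associated factor, rose by 0.33 (adjusted p = 0.00838, edgeR). In IL-13 over control, 4 were higher and 1 was lower.

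Of 7 other C-type lectin genes 5 were tested, and in IL-13/IL-6 over IL-13 2 were higher, 2 were lower and 1 was not called (median log2 fold change 0.15). *Mrc1*, the mannose receptor CD206, rose by 3.53 (SE 0.11, adjusted p = 2.94e-13, edgeR), from 496 to 5715 normalized CPM, and reached 8717 in IL-4/IL-6 compared with 996 for IL-4 alone. *Clec10a*, a galactose-type lectin, rose by 1.01 (adjusted p = 6.34e-06, edgeR). *Clec4a2*, an inhibitory lectin receptor, fell by 0.53 (adjusted p = 0.000528, edgeR), and *Clec7a*, the beta-glucan receptor Dectin-1, fell by 0.48 on the log2 scale. Unlike *Cd209a* and *Cd209e*, all 4 of these lectin genes were expressed in every group. In IL-13 over control, 3 were higher and 2 were lower.

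**Figure D5:**
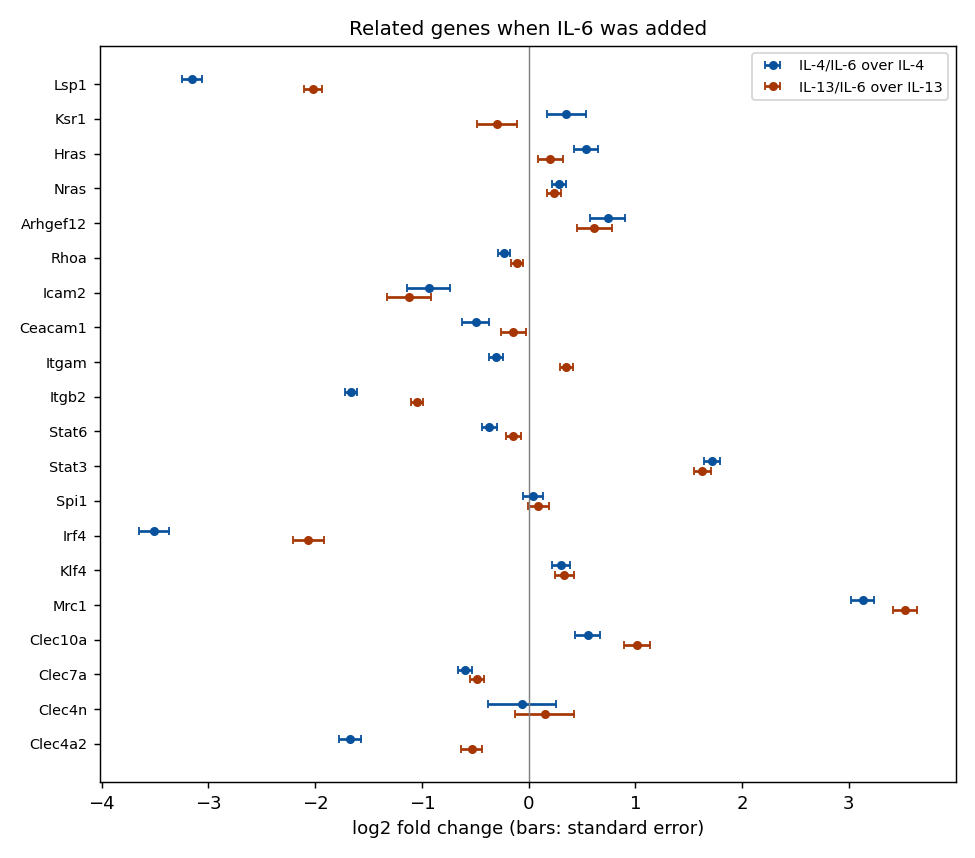
Log2 fold changes (points) with standard errors (bars) of the tested genes of the 4 lists, from *Lsp1* at the top to *Clec4a2* at the bottom, when IL-6 was added to IL-4 (blue) or to IL-13 (red). *Mrc1* lies highest, at 3.53 for IL-13/IL-6 over IL-13, and *Lsp1* (-2.02) and *Irf4* (-2.06) lowest in that contrast. The IL-4 values are shown as a description.

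The members also varied together to different degrees. Over the 15 libraries, which share their group structure, Pearson's correlation of log2 CPM was 0.89 for *Cd209d* with *Cd209e*, 0.89 for *Cd209c* with *Cd209d*, 0.86 for *Cd209a* with *Cd209c* and 0.73 for *Cd209a* with *Cd209d*. Spearman's values ran from 0.47 (*Cd209d* with *Cd209e*) to 0.88 (*Cd209a* with *Cd209c*), with many libraries tied at 0 counts.

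The 5 tested genes whose log2 CPM over the 15 libraries was most like that of each member were named by Pearson's correlation. For *Cd209a* they were *Rcn3* (0.973), *Pla2g15* (0.970), *Batf*, *Slc37a3* and *Pdgfc* (each 0.969). *Batf*, an AP-1 family transcription factor, was at 8.23 normalized CPM in control, 3.74 in IL-4, 21.0 with IL-4/IL-6, 2.45 in IL-13 and 8.93 in IL-13/IL-6. *Pdgfc*, a platelet-derived growth factor, was at 5.33, 0.996, 27.6, 0.541 and 9.74 in the same order. Both were present in control, lower in each cytokine alone and highest in IL-4/IL-6. They were picked by their correlation with *Cd209a* over these libraries, so this likeness follows from the choice.

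For *Cd209e* the genes were *Snd1* (0.991), *Osm* (0.984), *Slc38a7* (0.979), *Cnrip1* (0.979) and *Tnfrsf26* (0.978). *Osm*, the IL-6 family cytokine oncostatin M, was at 6.42 normalized CPM in control, 4.74 in IL-4, 51.1 with IL-4/IL-6, 3.95 in IL-13 and 13.1 in IL-13/IL-6. *Cnrip1*, which encodes a cannabinoid receptor-interacting protein, was at 10.3, 9.63, 83.0, 7.25 and 28.2. For *Cd209c* they were *Eef2k* (0.971), *Ralgds* (0.964), *Cyth1* (0.960), *Smpd2* (0.955) and *Enpp2* (0.954), and for *Cd209d* they were *Gm38070* (0.980), *Ccl1* (0.978), *2610300M13Rik* (0.971), *Nabp1* (0.959) and *Prlhr*. These lists depend on the measure. With Spearman's correlation 1 of the 5 genes was shared for *Cd209a* and 0 for each of the other 3 members, and with a prior count of 0.5 in place of 2 the shared genes were 2 for *Cd209a* and 3 for each of the others.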

How the data were processed

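RNA of 15 BMDM libraries (5 groups, 3 biological replicates each) was analyzed. The authors deposited whole-number counts per gene, not normalized, and FPKM values, which they had calculated from these counts with a gene length and the library total. This was checked on 192221 values of at least 10 counts, in which the implied lengths differed by a relative 7.99e-08 at most. The submitters' processing notes name GRCm38, CASAVA, Bowtie2 2.2.3, HISAT2 2.1.0, TopHat2 and DESeq2, without roles. The counting tool, its handling of strand and of reads shared by paralogs are not given in the sources used here, and such handling could change the counts of close copies.

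The counts entered edgeR 4.0.16 (R 4.3.3), with filterByExpr (minimum count 10, 13938 genes), TMM factors, estimateDisp, and the quasi-likelihood test with Benjamini-Hochberg adjustment, in 1 fit of all libraries without covariates. A call was an adjusted p under 0.05. Folds against a group at 0 used a floor of 3 counts over that group and the observed count of the other group. Counting intervals were 95% exact binomial (Clopper-Pearson). log2 CPM used a prior count of 2. Replicates of a group are given as biological, without their culture or animal, so the p-values measure the spread between these samples.

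The 7 members, the gene lists and the alternatives were chosen with earlier results of these data known. Named were all members, at most 4 genes of a list with their changes (the largest among those called), the 5 genes most like each member, where that member itself reached 1 normalized CPM in some group (no such minimum held for the 5 genes), and the neighbors of the cluster. Outside this rule, the other genes of 3 lists are named as members of the list. *Zbtb46*, *Mertk*, *Fcgr1*, *Marco*, *Siglec1*, *Stab2* and *Lyve1* were given values after these had been seen. Promoters came from RefSeq (GRCm38.p6), gene positions and transcripts from GENCODE M21. Some items, among them an allele carried by all groups, 2 genes of the signaling partners and 1 macrophage gene, are not reported here. These genes were taken out of their lists whatever their values, so the counts and medians of both lists cover the remaining genes only. The edgeR script was tested on simulated data. Alternatives were DESeq2 1.42.0, upper-quartile factors, other filters, a replicate block, a fit of 1 arm and the omission of each library. Python 3.11.15 was used for sequences and plots.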

Additional observations from a re-analysis of the deposited data

How the results depend on the processing

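Each comparison of the IL-13 groups called 2 of the 4 tested members, of which *Cd209c*, *Cd209d* and *Cd209e* passed the filter through IL-4/IL-6. Of all genes, 60.1% were called in IL-13 over control, 25.6% in IL-13/IL-6 over IL-13 and 64.0% in IL-13/IL-6 over control. Calls of *Cd209e* against control, 1 of the 2 in IL-13/IL-6 over control, enter the counts of members called as a description. Its control level was among the values that chose the family. IL-13 over control called 1 member when the fit held only the 9 libraries of the IL-13 arm and 1 with a filter on a mean count of at least 10. IL-13/IL-6 over IL-13 called 1 with the 9 libraries, because *Cd209a* was the only member that passed the filter there (13634 genes tested). IL-13/IL-6 over control called 0 in that fit, with *Cd209a* at an adjusted p = 0.699 (edgeR), 1 with the mean count filter, which leaves *Cd209c* and *Cd209d* untested, and 1 to 2 when each library was left out in turn. Under DESeq2, upper-quartile factors and no filter, each comparison again called 2. A fit of the 12 cytokine libraries, chosen after seeing the data because of the control markers, called *Cd209a* (adjusted p = 5.49e-06, edgeR) and *Cd209e* (adjusted p = 0.000166, edgeR) in IL-13/IL-6 over IL-13. That fit holds the IL-4/IL-6 libraries, through which *Cd209e* passed the filter, so its call there is no independent support. A fit of the 9 libraries of the IL-13 arm without a filter, also chosen after seeing the data, called 2 members in IL-13 over control, 2 in IL-13/IL-6 over IL-13 and in IL-13/IL-6 over control 1, which was *Cd209e* and is such a description. With the replicate number as a block, the count was 2 in each of the 3 comparisons, and the block changed no other call of a member. Same-numbered samples did not deviate together more than others did (correlation -0.276 to 0.163 over 30 pairs, against -0.349 to 0.393 over 60 pairs of different numbers). Such correlations cannot exclude a shared animal or culture behind a number, so whether the numbers pair the samples is not known. Adjusted p-values over the alternatives ran from 1.17e-28 to 5.49e-06 for *Cd209a* and from 4.95e-11 to 0.00122 for *Cd209e* in IL-13/IL-6 over IL-13, and from 0.0183 to 0.151 for *Cd209c* in IL-13/IL-6 over control. Depth limits the statements on *Cd209b*, *Cd209c* and *Cd209d* outside IL-4/IL-6, where most libraries had 0 to 3 counts.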
